A study of Homo sapiens with 4 samples.

Results

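The snoRNA host transcripts examined here are 10 spliced long noncoding RNA genes: GAS5, SNHG1, SNHG5, SNHG6, SNHG7, SNHG8, SNHG12, SNHG15, SNHG16 and ZFAS1. They were chosen by gene name, with earlier results of these data known, as 10 of the 60544 genes of the deposited count table. All 10 passed the low-count filter that left 16802 genes for testing. The cells are PC3, a prostate cancer line established from a human bone metastasis, and the libraries were made from their poly(A) RNA. The series compared METTL3 knockdown with control, with 2 libraries from cells labelled shNC (control) and 2 from cells labelled sh812, taken here to be the knockdown since no further label exists. The labels name no other agent, promoter or clone, and do not say whether the libraries of a group came from separate cultures. The p-values therefore set the group difference against the spread between these libraries, and may not cover the spread between cultures.

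A snoRNA host gene is transcribed as a long RNA whose introns carry small nucleolar RNAs. Splicing frees the introns, from which the snoRNAs are trimmed. Box C/D snoRNAs (SNORD) guide ribose methylation of ribosomal RNA, and box H/ACA snoRNAs (SNORA) guide its conversion of uridine to pseudouridine. The spliced exons leave the nucleus as a polyadenylated RNA with no long reading frame, and for several of these genes that RNA is a known target of nonsense-mediated decay (NMD). Several hosts also start with a terminal oligopyrimidine (TOP) tract, the run of C and T that marks the mRNAs of ribosomal proteins and ties their translation to growth signals. METTL3 carries the catalytic activity of the methyltransferase complex that deposits N6-methyladenosine (m6A), a base modification for which GGACT is a common sequence context.

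The start regions are shown because a TOP tract, where a gene has one, lies at the start. The table of RefSeq start windows used here (GRCh38.p14) matched 8 of the 10 members, all but SNHG6 and SNHG15. Each line runs 5′ to 3′ on the transcribed strand for 65 bases, from 35 before the RefSeq start. Capitals mark TATAA before the start and the longest run of at least 6 C or T between 15 bases before and 30 bases after it.
SNHG8: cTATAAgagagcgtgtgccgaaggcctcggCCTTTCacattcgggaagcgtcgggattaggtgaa
ZFAS1: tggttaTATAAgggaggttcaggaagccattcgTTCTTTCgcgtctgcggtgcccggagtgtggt
GAS5: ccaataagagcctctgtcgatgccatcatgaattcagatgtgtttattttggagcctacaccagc
SNHG1: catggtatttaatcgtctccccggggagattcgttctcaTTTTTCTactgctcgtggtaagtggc
SNHG5: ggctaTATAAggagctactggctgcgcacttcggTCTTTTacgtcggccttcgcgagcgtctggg
SNHG7: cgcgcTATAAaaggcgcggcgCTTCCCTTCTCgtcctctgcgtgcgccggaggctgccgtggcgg
SNHG12: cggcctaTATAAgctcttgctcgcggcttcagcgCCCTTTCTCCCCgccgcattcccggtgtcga
SNHG16: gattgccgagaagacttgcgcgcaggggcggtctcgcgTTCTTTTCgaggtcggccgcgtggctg

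In this order the stretches lie at chr4:118278727-118278791 (plus strand), chr20:49278607-49278671 (plus), chr1:173869016-173869080 (minus), chr11:62855856-62855920 (minus), chr6:85678704-85678768 (minus), chr9:136728155-136728219 (minus), chr1:28581844-28581908 (minus) and chr17:76557729-76557793 (plus). The letters TATAA stood on the transcribed strand within 35 bases before the start in 5 of 8 members, against 4.14% of 35116 RefSeq start windows. With either strand counted, the numbers were 5 of 8 and 5.19%. A run of at least 6 C or T stood near the start in 7 of 8 members, against 40% of all windows. The longest run had 12 bases, in SNHG12, and 11 bases in SNHG7. GAS5 had neither feature in this window, whose start lies upstream of the start that GENCODE 29 gives. The windows of SNHG12, ZFAS1 and SNHG8 lie wholly downstream of their GENCODE 29 starts, at 28583132, 49278178 and 118278709. Smaller differences, within the window, exist in SNHG1, SNHG5 and SNHG16. The features are therefore placed by the RefSeq start alone. These motifs were chosen after the sequences were seen, a match is a description of letters, and no p is attached to these shares.

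The targeted transcript was low in both sh812 libraries. METTL3 stood at 44.3 and 43.6 CPM (read counts scaled to library size) in shNC and at 7.66 and 8.75 CPM in sh812, and fell by 2.42 on the log2 scale (SE 0.11, adjusted p = 5.54e-14, edgeR's quasi-likelihood test). Total counts ran from 31450648 to 37041330 per library, and 1822 of 16802 genes (10.8%) had an adjusted p under 0.05. Of all genes tested, 5.43% were called higher and 5.42% lower, as 912 and 910 genes, and with library size alone as the scaling these were 561 and 1328. All 5 epithelial markers examined were detected, at a summed 816 to 921 CPM in shNC and 956 to 1020 CPM in sh812. Of these, 3 were called higher in sh812 with edgeR: EPCAM (log2 fold change 0.45), KRT18 (0.30) and CDH1 (0.57). KLK2 and KLK3, secreted proteases of the differentiated prostate that PC3 cells are known not to make, had 0 counts in every library. Of 9 stromal, immune and endothelial markers, CD3E was at 0 throughout, PTPRC, CD14 and VWF stayed under 1 CPM, and COL1A1, COL1A2 and PECAM1 were detected. PECAM1 (log2 fold change 0.59, edgeR adjusted p = 0.000222) and COL1A2 (0.50, edgeR adjusted p = 0.0116) were called higher in sh812. The summed level of these 9 was 73.3 to 74.8 CPM in shNC and 77.3 to 89.2 CPM in sh812, and the part of any of these markers in the results was not tested.

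Of the 10 host transcripts, 3 rose in sh812 (SNHG8, SNHG6 and GAS5), 0 fell and 7 did not pass the test, at an adjusted p under 0.05 over all genes tested. That is 30% called higher, against 5.43% of all tested genes and 1.65% of the 2299 tested lncRNA genes. Both of these background shares cover genes of every level past the filter and were not matched to the members by level. The background was higher among short transcripts, where 15.6% of genes were called higher, as described with the length trend below. Both sh812 libraries lay above both shNC libraries in 8 members, an arrangement that 26.2% of tested genes showed. They lay below in 1 member, SNHG15, against 27.4% of tested genes, and the groups overlapped in SNHG12. The fitted change was above 0 in 8 members, against 49% of tested genes. The median fitted log2 fold change of the members was 0.15, beside -0.0056 over all genes tested. Summed over the 10 members, the level was 266 and 265 CPM in shNC and 306 and 298 CPM in sh812.

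**Figure D1:**
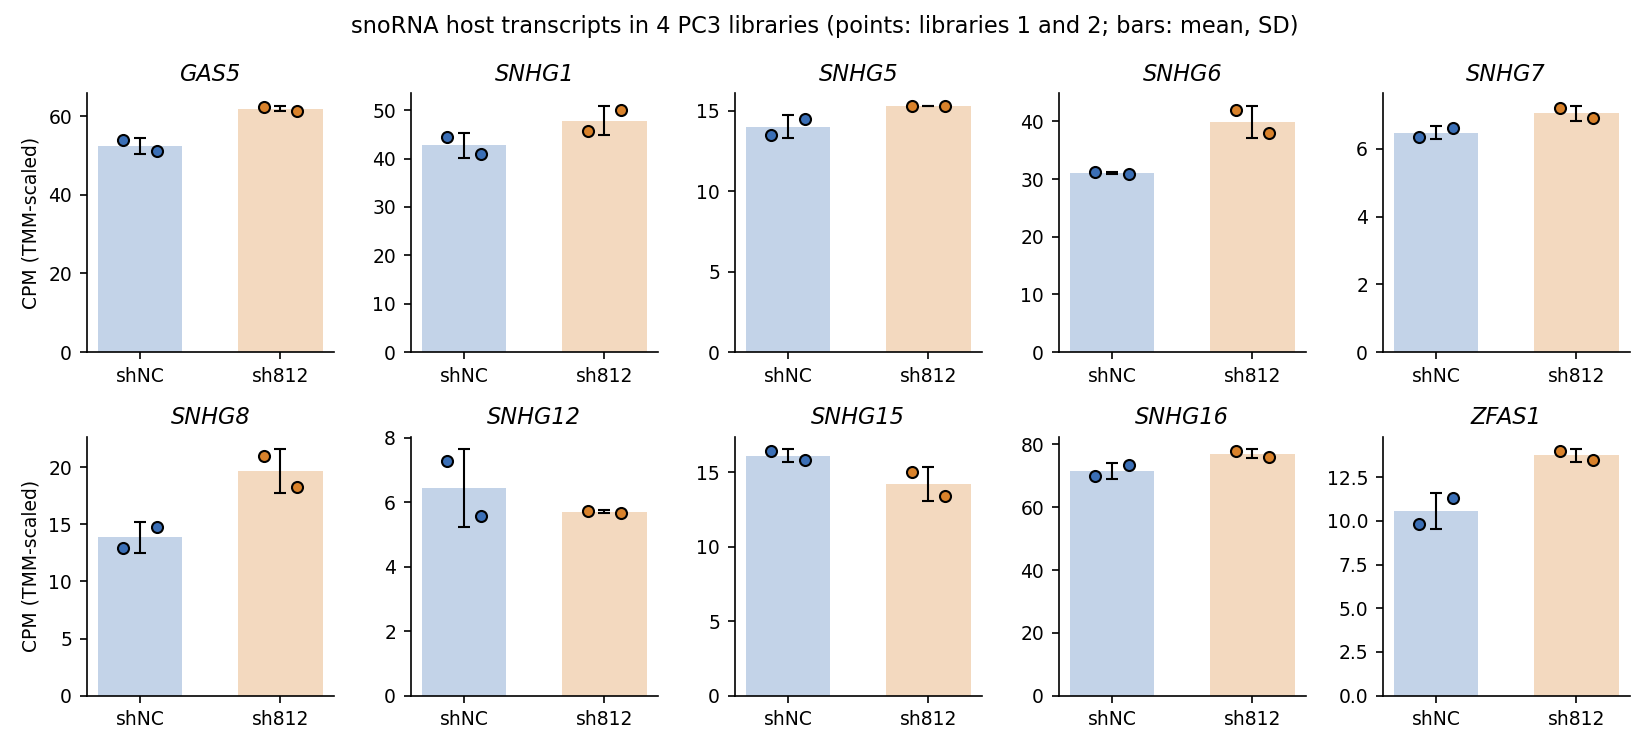
TMM-scaled CPM (y axis, from 0) of each host transcript in the shNC and sh812 libraries (x axis); points are libraries, bars the mean and error bars the SD of 2 libraries. Both sh812 points stand above both shNC points in 8 panels, below in SNHG15, and among them in SNHG12.

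SNHG8 had the largest fitted change of the members. The gene hosts SNORA24, an H/ACA guide, and lies on chromosome 4 from 118278709 to 118279823 (GENCODE 29, GRCh38, plus strand), with an exonic length of 923 bases. It had 490 and 468 counts in shNC and 736 and 654 counts in sh812, or 12.9 and 14.8 CPM against 21.0 and 18.3 CPM. The groups did not overlap, and the gap between them was wider than the gap between the libraries of either group. The mean rose from 13.9 ± 1.33 to 19.6 ± 1.90 CPM (SD, n = 2), a ratio of 1.42. The log2 fold change was 0.50 (95% interval 0.26 to 0.75, SE 0.12, edgeR adjusted p = 0.00689). Without sh812 replicate 1 it was 0.40 and no longer called (adjusted p = 0.154), with the single remaining sh812 library assumed to vary as the shNC libraries do.

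SNHG8 was also dense in GGACT. The longest annotated transcript, of 672 bases, holds 3 copies, shown with 10 bases on each side because the study lowered an enzyme that acts in this context. Capitals mark GGACT, and the motif's first base is at positions 217, 323 and 526 from the transcript's 5′ end, in the sequence of GENCODE 29.
SNHG8 copy 1: aagcatgcgcGGACTtgagtgctca
SNHG8 copy 2: gtgcactcggGGACTccggtgaagc
SNHG8 copy 3: atccggcaatGGACTtatcgtagtt

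That is 4.464 copies per kb, above 99.7% of 16627 tested genes with a transcript sequence, whose median was 0.909 per kb. A short transcript reaches a high rate with few copies, and no m6A was measured in these libraries. Of the 10 members 8 held at least 1 copy, as did 88.5% of the tested genes. SNHG6 and ZFAS1 held 0 copies and GAS5 held 1, counted in the longest annotated transcript alone. Whether the copies bear on the fitted changes was not tested.

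SNHG6 rose with the narrowest control spread of the called members. It hosts SNORD87, a C/D guide, and lies on chromosome 8 from 66921684 to 66926398 (minus strand). Its counts were 1185 and 977 in shNC and 1472 and 1359 in sh812, or 31.2 and 30.9 CPM against 41.9 and 38.0 CPM. Both sh812 libraries stood above both controls. The mean rose from 31.1 ± 0.246 to 40.0 ± 2.80 CPM (SD, n = 2). The log2 fold change was 0.36 (95% interval 0.18 to 0.54, SE 0.09, edgeR adjusted p = 0.00843). Without sh812 replicate 1 the value was 0.29 and not called (adjusted p = 0.224).

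GAS5, first described as a transcript that accumulates in growth-arrested cells and known as a decoy for the glucocorticoid receptor, had the smallest log2 fold change of the 3. RefSeq places 11 snoRNAs within it, 10 of them SNORDs, the highest number among the members. The gene lies on chromosome 1 from 173863900 to 173868882 (minus strand). Its counts were 2039 and 1613 in shNC and 2191 and 2199 in sh812, or 53.8 and 51.0 CPM against 62.4 and 61.4 CPM. The 2 sh812 libraries were close to each other and above both controls. The mean rose from 52.4 ± 1.95 to 61.9 ± 0.685 CPM (SD, n = 2). The log2 fold change was 0.24 (95% interval 0.09 to 0.39, SE 0.07, edgeR adjusted p = 0.0359). The call was lost with library size alone as the scaling (0.20, adjusted p = 0.0955). It was also lost without sh812 replicate 1 (0.23, adjusted p = 0.294) and without sh812 replicate 2 (0.25, adjusted p = 0.21).

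ZFAS1 was the nearest member outside the threshold. It hosts SNORD12, SNORD12B and SNORD12C and starts head to head with ZNFX1, a helicase gene, on chromosome 20 from 49278178 to 49295738 (plus strand). It had 373 and 356 counts in shNC and 490 and 483 counts in sh812, or 9.83 and 11.3 CPM against 14.0 and 13.5 CPM. The groups did not overlap, with means of 10.5 ± 1.01 and 13.7 ± 0.327 CPM (SD, n = 2). The log2 fold change was 0.38 (95% interval 0.12 to 0.65, SE 0.13, edgeR adjusted p = 0.0541), larger than those of SNHG6 and GAS5 and with a wider error. Without shNC replicate 2 it was 0.49 and past the threshold (adjusted p = 0.0095). Without each of the other libraries it was not: the value was 0.29 without shNC replicate 1 (adjusted p = 0.236), 0.36 without sh812 replicate 1 (adjusted p = 0.289) and 0.41 without sh812 replicate 2 (adjusted p = 0.181).

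SNHG16 and SNHG1 did not pass the test. SNHG16 hosts SNORD1A, SNORD1B and SNORD1C and had 69.8 and 73.3 CPM in shNC and 78.0 and 76.0 CPM in sh812. Its log2 fold change was 0.11 (95% interval -0.04 to 0.25, edgeR adjusted p = 0.367). SNHG1, the host of SNORD22 and SNORD25 to SNORD31, had 44.5 and 40.9 CPM in shNC and 45.7 and 50.0 CPM in sh812. Its log2 fold change was 0.17 (SE 0.08, edgeR adjusted p = 0.217). In both genes the sh812 libraries lay above the shNC libraries, by a gap that was smaller than the spread within at least one group.

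SNHG5 and SNHG7 differed little between the groups. SNHG5, the host of SNORD50A and SNORD50B, had 13.5 and 14.5 CPM in shNC and 15.3 CPM in both sh812 libraries, with a log2 fold change of 0.13 (95% interval -0.11 to 0.37, edgeR adjusted p = 0.533). SNHG7, the host of SNORA17A and SNORA17B, had 6.35 and 6.61 CPM in shNC and 7.21 and 6.90 CPM in sh812. Its log2 fold change was 0.12 (95% interval -0.20 to 0.45, edgeR adjusted p = 0.696). The intervals leave room for a change of up to 0.37 and 0.45 upward, so these values do not show that the transcripts were unaltered.

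SNHG15 and SNHG12 were the 2 members fitted below 0, and neither passed the test. SNHG15, the host of SNORA9, had 16.4 and 15.8 CPM in shNC and 15.0 and 13.4 CPM in sh812, with a log2 fold change of -0.18 (95% interval -0.43 to 0.06, edgeR adjusted p = 0.353). SNHG12 hosts SNORD99 and 3 SNORAs and had 7.28 and 5.57 CPM in shNC and 5.73 and 5.67 CPM in sh812. The control libraries differed from each other more than either differed from the nearer sh812 library, and the sh812 values lay between them. Its fitted value of -0.18 on the log2 scale (edgeR adjusted p = 0.587) turned to 0.03 when shNC replicate 1 was left out. SNHG12 was the member with the widest spread between control libraries, at -0.39 on the log2 scale for replicate 2 against replicate 1.

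**Figure D2:**
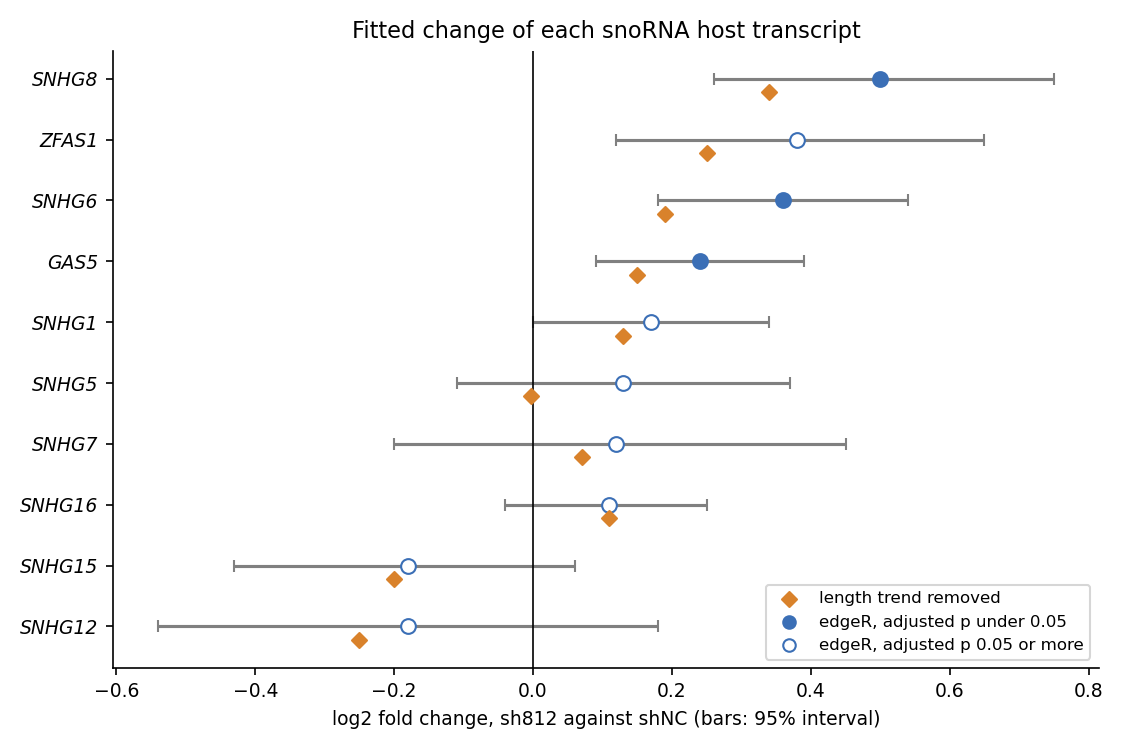
Fitted log2 fold change of each host transcript, sh812 against shNC (x axis), with its 95% interval; filled circles have an adjusted p under 0.05 and diamonds give the value with each library's length trend removed. SNHG8 (0.50), SNHG6 (0.36) and GAS5 (0.24) are filled, and the diamonds lie left of the circles except in SNHG16, where they coincide at 0.11.

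Levels between members can be compared only per length, and CPM per kb of exonic sequence was used here. In the shNC libraries SNHG6 stood highest, at 25.1 and 24.8 CPM per kb. SNHG8 followed at 14.0 and 16.0, then GAS5 at 14.8 and 14.0, SNHG16 at 13.0 and 13.7 and SNHG1 at 11.8 and 10.9 CPM per kb. SNHG8 and GAS5 overlapped and could not be ordered. A middle group of SNHG5 (4.80 and 5.17), ZFAS1 (4.38 and 5.02) and SNHG15 (4.50 and 4.34) lay within each other's spread, except that SNHG5 stood above SNHG15 in both libraries. SNHG12 (1.71 and 1.30) and SNHG7 (1.46 and 1.52) were lowest and overlapped. In sh812 the order at the top was SNHG6 at a mean of 32.0, SNHG8 at 21.3 and GAS5 at 17.1 CPM per kb, with no overlap between these 3, and ZFAS1 (6.22 and 6.02) stood above SNHG5 (5.46 and 5.47). Exonic length is the union of all annotated exons, from 923 bases in SNHG8 to 5362 in SNHG16, and retained introns in it lower the value of a gene whose fully spliced form is short.

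The host transcripts are short by annotation, and log2 fold changes over all genes fell with transcript length. The longest annotated transcript of a member ran from 648 bases in SNHG6 to 3607 in SNHG16, and the median over 12242 genes with a mean of at least 2 CPM was 3689. Those genes were divided into 5 equal classes by length. In the shortest class, up to 2118 bases, the median log2 fold change was 0.107 and 15.6% of genes were called higher. In the longest class the median was -0.082 and 3.27% were called higher. The same trend separated the control libraries, with medians of 0.089 and -0.072 for shNC replicate 2 against replicate 1 in these classes, while between the sh812 replicates they were -0.017 and -0.003. The shortest class held GAS5, SNHG5, SNHG6, SNHG8, SNHG12 and ZFAS1. The longest annotated transcript need not be the fully spliced form. In SNHG12 it has 1 exon, and in SNHG1, SNHG15 and SNHG16 its exons overlap a snoRNA of the gene. The class of a member and the removal of the trend rest on this length.

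With each library's trend on transcript length removed, none of the 10 members was called in edgeR. SNHG8 then had a log2 fold change of 0.34 (adjusted p = 0.0585), ZFAS1 0.25 (adjusted p = 0.213), SNHG6 0.19 (adjusted p = 0.165) and GAS5 0.15 (adjusted p = 0.192). SNHG5 went to -0.0026. With the GC trend removed as well, SNHG8 was called (0.34, adjusted p = 0.0474) and the other 9 were not. The median of the members was 0.12 in both cases, with 7 of 10 above 0.

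**Figure D3:**
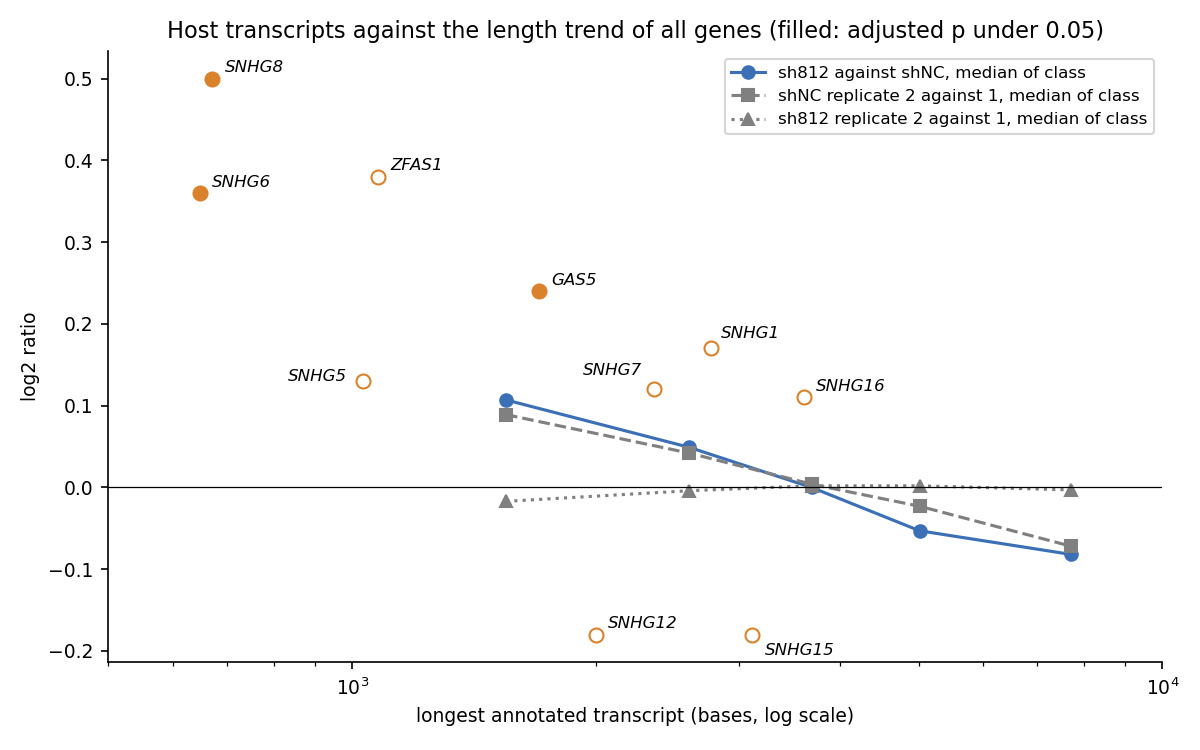
Log2 ratio (y axis) against the longest annotated transcript in bases (x axis, log scale); circles are the host transcripts (filled at an adjusted p under 0.05) and lines join the medians of the 5 length classes of all genes. The sh812 against shNC line and the shNC replicate 2 against 1 line both fall with length. Of the members in the shortest class, SNHG8, ZFAS1, SNHG6, GAS5 and SNHG5 (0.13) stand above its median of 0.107, and SNHG12 (-0.18) below.

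None of the tested genes that start beside a member or overlap it passed the test. ZNFX1, whose start lies 248 bases from that of ZFAS1 on the opposite strand, had 93.1 and 89.3 CPM in shNC and 79.5 CPM in both sh812 libraries. Its log2 fold change was -0.20 (SE 0.07, edgeR adjusted p = 0.0564), opposite in sign to that of ZFAS1. SLC3A2, an amino acid transporter subunit whose start lies 188 bases from that of SNHG1, had 183 and 202 CPM in shNC and 183 CPM in both sh812 libraries (log2 fold change -0.07, edgeR adjusted p = 0.533). ZBTB37, 800 bases from the start of GAS5, had 3.19 and 2.97 CPM in shNC and 4.05 and 3.13 CPM in sh812 (log2 fold change 0.22, edgeR adjusted p = 0.622). AC015802.4, beside SNHG16, had at most 16 counts in a library.

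The library method keeps the strand, but whether the counting used it is not given in the sources used here. Exons on the opposite strand overlap those of GAS5 (GAS5-AS1), SNHG6 (MCMDC2), SNHG7 (DIPK1B), SNHG12 (TRNAU1AP), SNHG16 (AC015802.6) and ZFAS1 (ZNFX1), and reads there cannot be assigned with certainty. Of these, TRNAU1AP had 22.5 and 21.7 CPM in shNC and 23.5 and 24.5 CPM in sh812, above the level of SNHG12 in every library. SNHG8, SNHG1, SNHG5 and SNHG15 had no such overlap in GENCODE 29.

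The snoRNAs themselves were nearly absent from these poly(A) libraries, and mature snoRNAs carry no poly(A) tail. GENCODE 29 places 26 snoRNA rows of the table inside the members, and 3 of them had any count. It places 0 in GAS5, so the snoRNAs that RefSeq gives for that gene were not examined one by one. SNORD99, within SNHG12, had 6, 2, 10 and 3 counts in shNC replicates 1 and 2 and sh812 replicates 1 and 2. SNORD1B, within SNHG16, had 5, 0, 3 and 0 in the same order, and SNORD12C had 1 count in all. The 942 snoRNA rows of the whole table held 387 to 510 counts per library. The values above therefore describe the annotated exons of the hosts and say nothing of the level of their snoRNAs. In GENCODE 29 these exons together cover 3756 of the 3927 bases of SNHG1 and 4266 of 4595 in SNHG12. In SNHG6 they cover 1247 of 4715. Fully spliced RNA and RNA with retained introns were not told apart in the counts.

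In a list of 20 other noncoding genes named as snoRNA hosts, of which 16 held a snoRNA in RefSeq, 17 passed the filter and 0 were called in edgeR, against 10.8% of all genes, with 11 fitted above 0 and 6 below. At an unadjusted p under 0.05 there were 4, as against 4 of the 10 members and 24.8% of all tested genes, and DESeq2 called 0. These 4 are named after their values were seen. SNHG29 had 82.8 and 88.7 CPM in shNC and 94.5 and 97.8 CPM in sh812 (log2 fold change 0.17, edgeR adjusted p = 0.117). SNHG21 had a log2 fold change of 0.98 at under 2 CPM, and SNHG18 and SNHG14 were at -0.31 and -0.15. The median of the 17 was 0.09, and without shNC replicate 2 the test called 2 of them.

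Many hosts that code for protein rose. These are mostly genes of ribosomal proteins and translation factors, whose introns carry snoRNAs as those of the noncoding hosts do and whose mRNAs start with a TOP tract. Of 48 such genes tested, 47 of which held a snoRNA in RefSeq, 21 rose and 1 fell, which is 43.8% called higher against 5.43% of all tested genes, and the median log2 fold change was 0.17. RPS2 and RPSA, of the small ribosomal subunit, went from 1170 ± 96.5 to 1470 ± 20.5 CPM and from 1920 ± 210 to 2420 ± 31.7 CPM (SD, n = 2), each with a log2 fold change of 0.34 (edgeR adjusted p = 0.000498 and 0.000816). RPL13A and RPL12, of the large subunit, rose by 0.30 and 0.28 on the log2 scale (edgeR adjusted p = 0.00108 and 0.00299). These genes have many processed pseudogenes, so their counts are uncertain. EIF4A2, an initiation factor gene, was the one that fell, with a log2 fold change of -0.20 (edgeR adjusted p = 0.0255). With the length trend removed 12 were called, all higher, and without single libraries the number ran from 5 (without sh812 replicate 1 or without sh812 replicate 2) to 37 (without shNC replicate 2).

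Of 22 tested snoRNP proteins, which package and mature the snoRNAs, 3 rose and 0 fell. That share of 13.6% called higher stands beside 5.43% of all tested genes, and the list's median was 0.16 with 19 of 22 above 0. FBL, the methyltransferase of box C/D particles, had 211 and 218 CPM in shNC and 281 and 268 CPM in sh812, with a log2 fold change of 0.36 (SE 0.06, edgeR adjusted p = 0.000245). SNU13, which binds the C/D motif, and RUVBL2, an assembly ATPase, changed by 0.23 and 0.22 on the log2 scale (edgeR adjusted p = 0.0234 and 0.0196). The number called was 1 with library size alone and without either sh812 library, 5 without shNC replicate 1 and 9 without shNC replicate 2.

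Of 22 NMD factors, 0 rose and 1 fell, which is 4.55% called against 10.8% of all genes. The one was XRN1, the exonuclease that degrades decapped RNA, at 39.1 and 29.3 CPM in shNC and 27.5 and 26.6 CPM in sh812 (log2 fold change -0.34, edgeR adjusted p = 0.0404). The shNC libraries differed by more from each other than shNC replicate 2 did from sh812. With the length trend removed, 2 factors were called higher and 0 lower. The number called ran from 0 without either sh812 library to 3 without shNC replicate 1 and 6 without shNC replicate 2. Of 7 other transcripts reported as sensitive to NMD (ATF4, ATF3, DDIT3, UPP1, TBL2, GADD45A and GADD45B), 0 were called in edgeR, 1 had an unadjusted p under 0.05, and DESeq2 called 0. Their median log2 fold change was -0.10, with 1 fitted above 0 and 6 below. Whether these values bear on the host transcripts was not tested.

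Of 13 regulators of TOP mRNAs, 1 rose and 1 fell (15.4% called against 10.8%). CNBP, a zinc-finger protein that binds TOP tracts, had 288 and 307 CPM in shNC and 344 and 332 CPM in sh812 (log2 fold change 0.19, edgeR adjusted p = 0.0413). TIA1, a translational silencer, had 94.5 and 86.6 CPM in shNC and 78.0 and 76.5 CPM in sh812 (log2 fold change -0.23, edgeR adjusted p = 0.031). The median of the list was 0.03. The number called was 0 without either sh812 library and 6 without shNC replicate 2.

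**Figure D4:**
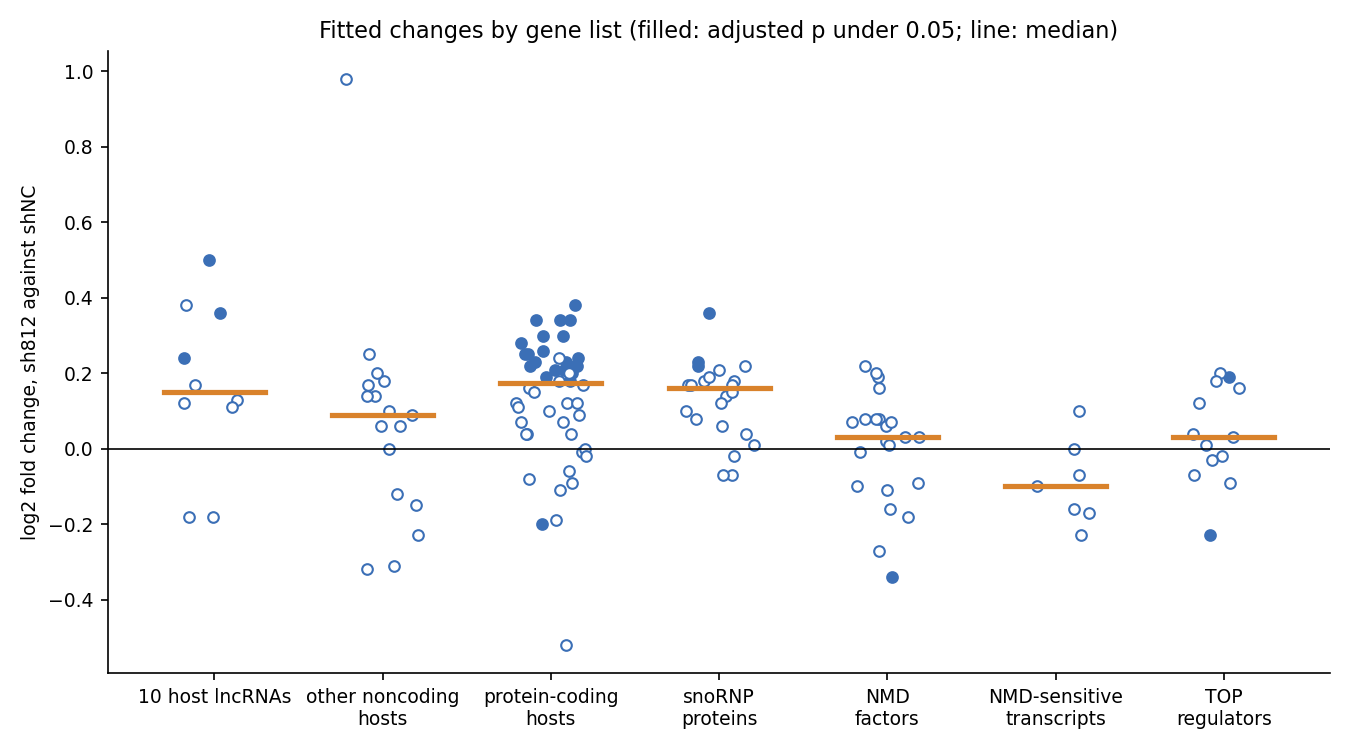
Log2 fold change, sh812 against shNC (y axis), of every tested gene in 7 gene lists (x axis); filled points have an adjusted p under 0.05 and the horizontal line is the list's median. The medians are 0.15 for the 10 host lncRNAs, 0.17 for protein-coding hosts and 0.16 for snoRNP proteins, with 0.09 for other noncoding hosts and -0.10 for the NMD-sensitive transcripts.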

How the data were processed

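The authors deposited raw counts per gene for 4 libraries, as whole numbers with a different total in each. Per the submitters' processing notes, fastp, STAR 2.7.1a, featureCounts and DESeq2 were used with hg38, and the annotation release is not given in the sources used here. Second strands were marked with dUTP and paired reads of 150 bp were taken, per the labels' protocols. These counts entered edgeR 4.0.16 (R 4.3.3) with the default filterByExpr filter, TMM scaling, no covariate, a prior count of 0.125, and glmQLFit and glmQLFTest, with Benjamini-Hochberg adjustment over all 16802 genes and a threshold of 0.05. SEs and 95% intervals were derived from the F statistic. CPM are counts divided by effective (TMM) library sizes. Mean chi-square per gene was 8.43 and 4.51 in the shNC and sh812 pairs, so replicates were kept apart.

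Gene models, transcript lengths and GGACT counts were taken from GENCODE 29 (GRCh38) by Ensembl identifier, and start windows and snoRNA contents from RefSeq. The length trend was a lowess curve of span 0.3 per library on the longest transcript. Members and lists were chosen with earlier results of these data known. Named genes are METTL3, the members, their head-to-head neighbours within 2000 bases, overlapping genes and, per list, up to 4 called genes with the smallest p in each direction. The list of snoRNP proteins shares NOP56 and DKC1 with that of protein-coding hosts. On simulated data with 16414 genes, the test called 95% of genes set to a log2 change of 1 and 72% at 0.5. Some genes that this rule selects are not reported here.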

Additional observations from a re-analysis of the deposited data

How the results depend on the processing

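All alternatives were planned. Against 3 members called, 0 were called with the length trend removed, 1 with the length and GC trends removed, and 0 to 4 without single libraries. The members' median of 0.15 was 0.10 with library size alone, 0.12 with the length trend and with both trends removed, and 0.14 to 0.18 without single libraries. With library size alone the median over all genes also moved, from -0.006 to -0.05. It was -0.007 with the length trend removed and with both trends removed. SNHG5 changed sign with the length trend (-0.0026) and both trends (-0.0027) removed, as did SNHG12 without shNC replicate 1, with values of -0.35 to 0.03 without single libraries. Why these values moved was not tested.

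The number of genes called over the whole table, 1822, was 587 to 3252 in the separate tests without single libraries. Protein-coding hosts (22) numbered 12 with the length trend removed, 14 with both, and 5 to 37 without single libraries. snoRNP proteins (3) numbered 1 with library size alone and 1 to 9 without single libraries. TOP regulators (2) numbered 1 with library size alone, with the length trend removed and with both removed, and 0 to 6 without single libraries. NMD factors (0 higher, 1 lower) numbered 2 with RLE factors, upper quartile factors, limma-voom and the replicate block (1 higher, 1 lower each). They also numbered 2 with the length trend removed and with both removed, but then as 2 higher and 0 lower. They numbered 3 with library size alone and with a mean CPM of at least 1, 0 with DESeq2, and 0 to 6 without single libraries. NMD-sensitive transcripts (0) numbered 1 with both trends removed and 0 to 1 without single libraries, and other noncoding hosts (0) numbered 0 to 2 without single libraries.

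Same-numbered libraries had deviations with a correlation of 0.0164, which gives no hint of pairs. Under the replicate block the calls numbered 2001, and ZFAS1 passed (0.38, adjusted p = 0.0448), so 4 members were called. Leaving out a library leaves 1 in its group, which is assumed to vary like the other group. With 2 libraries a group, changes of the size seen in most members can be missed.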
